A study of Mus musculus with 12 samples.

Results

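Genes of the insulin-like growth factor (IGF) and growth hormone axis were followed in the hypertrophic zone of the mouse growth plate: the ligands Igf1 and Igf2, the receptors Igf1r, Igf2r and Ghr, and the binding proteins Igfbp2, Igfbp3, Igfbp4, Igfbp5 and Igfbp6. The members were taken as every probe that is no control and carries one of these gene names in the array annotation. All 10 genes were found, with 21 of the 41174 probes of the array, which carries 27962 gene names in all.

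Hypertrophic zones were cut under a microscope from the tibiae of mice aged 14 days, in 4 groups of 3 mice, and the amplified, Cy3-labelled RNA of each mouse was hybridized to its own single-colour array. Schmid mice are homozygous for Col10a1 p.Asn617Lys, a knock-in change in collagen X that makes the chain misfold, and their controls were wildtype mice on that background. The ColXTgcog mice, called Cog, carry a transgene in which the collagen X promoter drives a misfolding form of thyroglobulin in hypertrophic cells, and were compared with wildtype mice of the Cog background. Cog mice with the transgene on a single chromosome and on both were not told apart. The 2 control groups were wildtype littermates with neither change, and are called the Schmid wildtype and the Cog wildtype here. Since each mouse gave 1 array, the spread within a group holds both the differences between mice and those of dissection, amplification and hybridization.

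The question for each gene was whether its transcript level changed when a misfolding protein accumulated in these cells, and whether the change differed between the 2 mutants. Growth hormone, made by the pituitary, acts through its receptor Ghr on the liver and on the growth plate, where it raises local Igf1. Igf1 and Igf2 signal through the tyrosine kinase Igf1r, while Igf2r takes up Igf2 and sends it to the lysosome. The binding proteins hold the ligands outside the cell and set how much of them reaches the receptor, and loss of Igf1, Igf1r or Ghr shortens the long bones.

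Levels are normalized log2 signals, on which a difference of 1 is a doubling of the signal, and they are compared between groups within a probe and not between probes. A probe was called when limma gave an adjusted p of 0.05 or less, over all 41174 probes, together with a fold change of at least 2. A fold change with a minus sign means a lower signal in the mutant. Intervals are 95% intervals from the same fit.

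The quality of the arrays differed between groups. The share of spots well above background lay between 58.9 and 61.8% for Schmid and between 39.6 and 59.4% for the remaining groups. The median negative control signal lay between 202 and 617 for Schmid and between 977 and 1894 for the remaining groups. The 3 Schmid arrays filled a slide of their own, as did the 3 Cog wildtype arrays, and no slide held a mutant with its own wildtype, so that slide and genotype cannot be told apart as fixed terms. All 7 measured markers of hypertrophic chondrocytes, among them Col10a1, Spp1 and Mmp13, were well above background on all 12 arrays. Neither mutation removes a transcript, so the Col10a1 level (14.21 in Schmid and 14.23 in its wildtype) does not check the labels.

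The probes are single DNA strands of 60 bases, and for several of these genes the answer depends on the probe. Some of them are shown because they fix which transcript stretch was read in the results below. The first is the Igf1 probe that separated the mutants, the next pair are Ghr probes of the same transcript that gave unlike results, and the last is the Igfbp3 probe with the smaller error. Positions are those of the array annotation in mouse build mm7. The Igf1 probe lies at chr10:87471884-87471943 on the plus strand, and Ghr A_52_P680935 at chr15:3153846-3153905 on the minus strand. Ghr A_52_P680941 and Igfbp3 A_51_P228472 cross a splice junction, since their bases are spread over chr15:3159367-3166819 and chr11:7160474-7161483, both on the minus strand.
Igf1 A_52_P536434: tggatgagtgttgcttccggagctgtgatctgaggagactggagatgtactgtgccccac
Ghr A_52_P680935: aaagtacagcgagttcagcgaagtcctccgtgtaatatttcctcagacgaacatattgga
Ghr A_52_P680941: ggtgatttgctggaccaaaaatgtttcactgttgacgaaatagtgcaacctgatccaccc
Igfbp3 A_51_P228472: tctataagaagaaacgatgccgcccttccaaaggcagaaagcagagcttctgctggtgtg

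In Schmid, 4 of the 21 probes (19%) were called, against 10.5% of all probes on the array. They belong to 2 genes. Ghr fell at 3 of its 5 probes, while 4.69% of all probes were called lower, and Igfbp6 rose at its only probe, while 5.78% of all probes were called higher. Without the fold limit, 7 of the 21 passed on the adjusted p, against 24% of all probes. Levels did not overlap between Schmid and its wildtype at 9 of the 21 probes, and at 45.3% of all probes. The median difference was -0.42 over the 21 probes and -0.06 over all probes.

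In Cog, 1 of the 21 probes (4.76%) was called, against 2.31% of all probes. It was the brighter Igfbp4 probe, which rose, while 1.56% of all probes were called higher and 0.748% lower. The same probe alone passed on the adjusted p, against 4.58% of all probes. Levels did not overlap at 7 of the 21 probes, and at 29.4% of all probes. The median difference was -0.07 over the 21 probes and 0.00 over all probes.

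**Figure D1:**
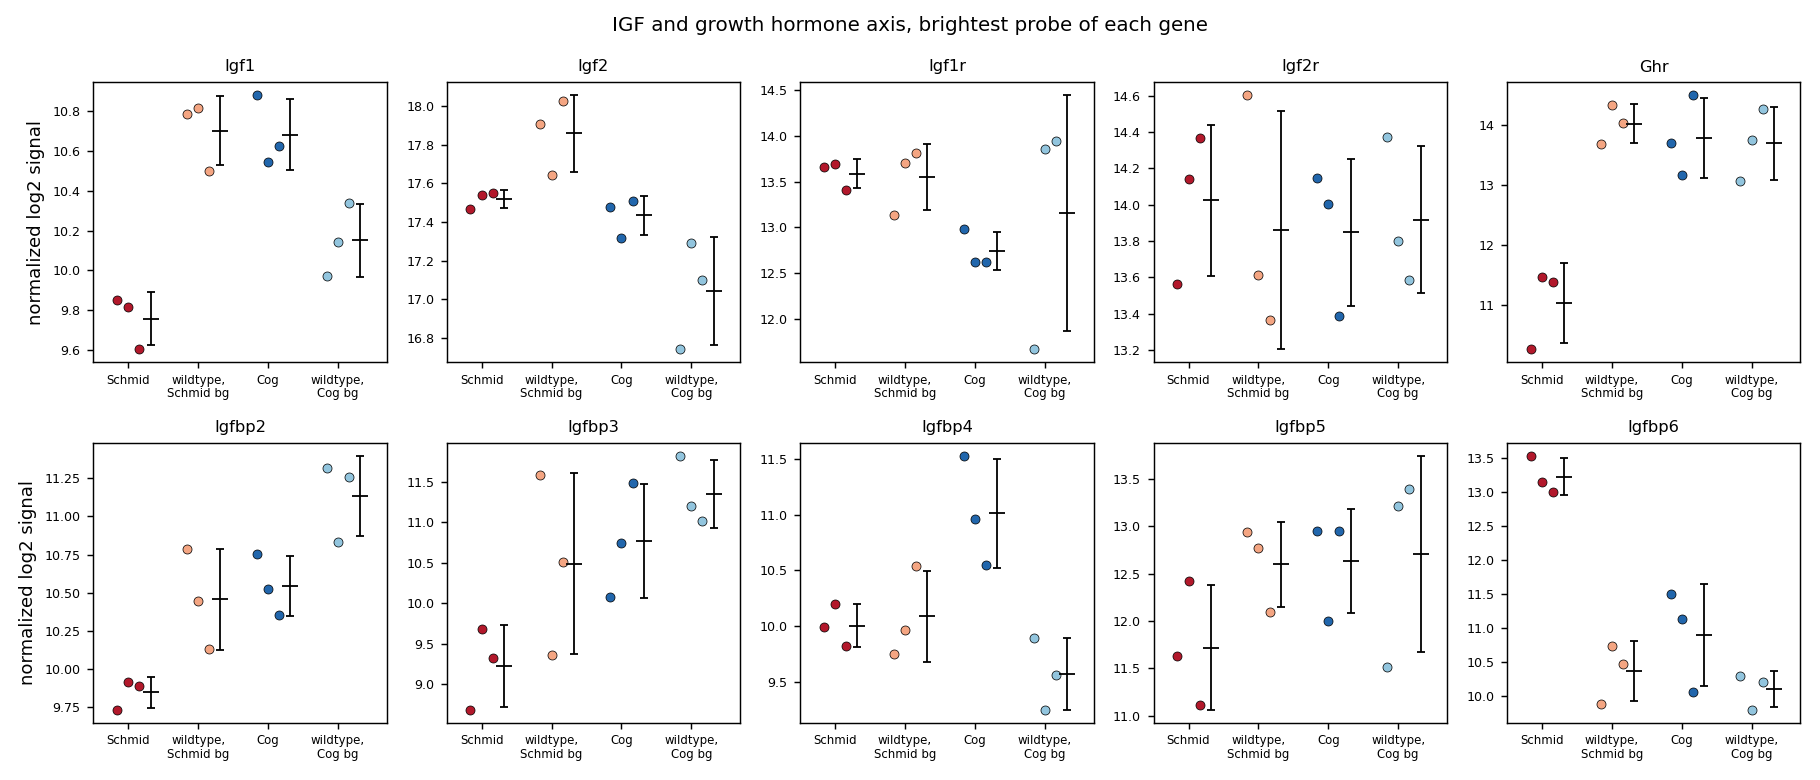
Normalized log2 signal of the brightest probe of each of the 10 genes on every array, with a panel for each gene and its own vertical axis. Points are arrays, and bars are the mean and SD of the 3 arrays of a group (bg, background). The 3 Schmid arrays lie below all others for Ghr (at most 11.46) and above all others for Igfbp6 (at least 12.99).

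Among the ligands, Igf1 lay on opposite sides of wildtype in the mutants at its brightest probe. There the 3 Schmid arrays read 9.85, 9.81 and 9.60, and the Schmid wildtype arrays read 10.79, 10.82 and 10.50. The Cog arrays read 10.88, 10.54 and 10.62, and the Cog wildtype arrays 9.97, 10.14 and 10.34, of which 2 were well above background. Each mutant was thus clear of its own wildtype, the Schmid arrays below and the Cog arrays above. The difference in Schmid was -0.94 ± 0.15 (SE), a fold change of -1.92 with an adjusted p of 0.0017, and so stayed under the fold limit for a call. The difference in Cog was 0.53 ± 0.15 (SE), a fold change of 1.45 with an adjusted p of 0.069. The change in Schmid minus the change in Cog was -1.48 ± 0.21 (SE), with an adjusted p of 0.0016, and was called. The wildtype groups stood at 10.70 ± 0.17 and 10.15 ± 0.19 (SD, n = 3), with an adjusted p of 0.11 between them. The Igf1 value in Schmid depends on how the array surface and the base composition are treated, and came to -0.38 with an adjusted p of 0.096 once smooth trends over the rows of the array and over probe GC content were taken out. The difference between the 2 changes was then -0.80 with an adjusted p of 0.040, and was no longer called. With the processed signals, and with normexp values at a common 75th percentile, Igf1 was called lower in Schmid, at -1.55, -1.40 and -1.31.

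The other Igf1 probes gave little signal. A_51_P147942, printed in 10 spots, was well above background on 2 of the 3 Schmid wildtype arrays and on none of the other 9. The mean was 8.55 ± 1.04 over the Schmid arrays and 9.75 ± 0.65 over their wildtype arrays (SD, n = 3). The difference was -1.21 with an interval of -2.51 to 0.09 and an adjusted p of 0.15, and the arrays overlapped. Since no Schmid array was well above background, the size of this difference is uncertain. The last Igf1 probe, A_52_P306327, was not well above background on any of the 12 arrays.

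Igf2, the ligand of fetal growth that stays active in young cartilage, was bright at its 10-spot probe on every array. The Schmid arrays read 17.47, 17.54 and 17.55 and the Schmid wildtype arrays 17.91, 17.64 and 18.03. The Cog arrays read 17.48, 17.32 and 17.51 and the Cog wildtype arrays 16.74, 17.29 and 17.10. Here too Schmid lay below its wildtype and Cog above, with no overlap in either pair. Neither difference passed, at -0.34 with an adjusted p of 0.13 in Schmid and 0.39 with an adjusted p of 0.17 in Cog. The difference between the 2 changes was -0.73 ± 0.22 (SE) with an adjusted p of 0.043, under the fold limit. The wildtype groups themselves differed by 0.81 ± 0.15 (SE), a fold change of 1.76 with an adjusted p of 0.041, which is larger than the change in either mutant. The second Igf2 probe, A_51_P516833, differed by -0.42 in Schmid and -0.21 in Cog, with adjusted p of 0.38 and 0.76.

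Among the receptors, Ghr, through which growth hormone reaches the cell, fell in Schmid. At its brightest probe, A_52_P633550, designed on the cDNA clone AK053579, the Schmid arrays read 10.26, 11.46 and 11.38. The Schmid wildtype arrays read 13.68, 14.33 and 14.03, the Cog arrays 13.69, 13.17 and 14.49, and the Cog wildtype arrays 13.06, 13.74 and 14.26. The Schmid arrays all lay below the other 9, which overlapped. The difference in Schmid was -2.98 ± 0.43 (SE), a fold change of -7.91 with an adjusted p of 0.0012, and that in Cog was 0.10 ± 0.43 (SE), with an adjusted p of 0.92. The changes differed by -3.08 ± 0.60 (SE), with an adjusted p of 0.0081, and this difference was called.

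Of the 3 Ghr probes designed on the transcript NM_010284, a pair were called lower in Schmid and the other was not. A_51_P499854 read 10.41, 10.34 and 10.44 on the Schmid arrays, 11.98, 12.33 and 12.54 on the Schmid wildtype arrays, and 12.44 to 13.20 on the 6 arrays of the Cog comparison. Its fold change in Schmid was -3.68, with an adjusted p of 0.00035, and the difference from the change in Cog was -1.78 ± 0.29 (SE), with an adjusted p of 0.0036. A_52_P680935 read 11.75, 11.54 and 11.77 on the Schmid arrays and 13.61, 13.04 and 12.87 on the Schmid wildtype arrays. This is a fold change of -2.80, with an adjusted p of 0.0047, while the difference from the change in Cog was -0.95, with an adjusted p of 0.13. The junction probe A_52_P680941 read 9.55, 9.56 and 9.77 on the Schmid arrays and 10.64, 9.07 and 10.14 on their wildtype arrays, which overlap. Its difference was -0.32 with an interval of -1.07 to 0.42 and an adjusted p of 0.50, and it was well above background on 2 of the 3 wildtype arrays and on 1 of the 3 Cog arrays. The remaining probe, A_52_P54106, on the cDNA clone AK034547, differed by -0.53 in Schmid and -0.49 in Cog, with adjusted p of 0.086 and 0.21. Its arrays did not overlap with those of the wildtype in either mutant, and with the processed signals of the scanner software it was called lower in Schmid, at -1.20 and -1.04 under their scalings, both with an adjusted p of 0.048.

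All 5 Ghr probes thus had lower means in Schmid, and the 3 called probes sit in a region of the array where calls of this direction were common. They lie in rows 35, 53 and 95 of the 532 rows, and the other Ghr probes in rows 349 and 461. Of the probes in rows 1 to 159, 10.4% were called lower in Schmid, against 2.27% of those in the other rows. With the trend over the rows removed from each array, the differences in Schmid were -2.66, -1.57 and -1.22 for A_52_P633550, A_51_P499854 and A_52_P680935, with adjusted p of 0.0022, 0.0012 and 0.018, and all 3 were still called. In Cog, no Ghr probe was called.

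**Figure D2:**
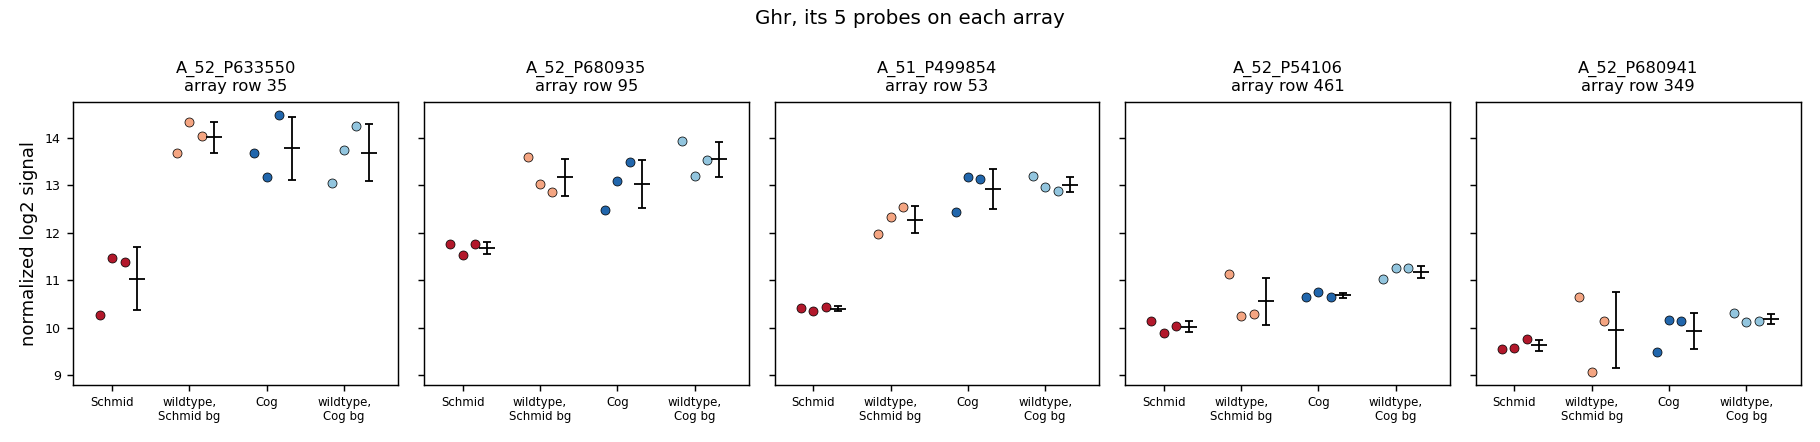
Normalized log2 signal of the 5 Ghr probes on every array, with the row of the array in which each probe lies. Points are arrays and bars the mean and SD of 3 arrays; only groups within a panel can be compared. In the panels of A_52_P633550, A_52_P680935, A_51_P499854 and A_52_P54106 the 3 Schmid arrays lie below the other 9. In that of A_52_P680941 they overlap with their wildtype.

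The other receptors showed no called change. Igf1r, the signalling receptor of both ligands, ranged from 13.41 to 13.70 on the Schmid arrays and from 13.13 to 13.81 on their wildtype arrays, a difference of 0.04 with an interval of -1.07 to 1.14. In Cog it ranged from 12.62 to 12.98, and its wildtype arrays read 11.67, 13.85 and 13.95, so that a single control array lay far below the other arrays. The difference in Cog was -0.42 with an adjusted p of 0.68. Without the low array, replicate 1 of the Cog wildtype, it was -1.16 with an adjusted p of 0.019, and Igf1r would be called lower in Cog. The second Igf1r probe, A_52_P668647, was well above background on 2 Schmid arrays and on none of the others. Igf2r, the clearance receptor of Igf2, ranged from 13.36 to 14.60 over the 12 arrays and differed by 0.16 (interval -0.63 to 0.96) in Schmid and -0.07 (interval -0.86 to 0.72) in Cog.

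Among the binding proteins, Igfbp6, which prefers Igf2 to Igf1, rose in Schmid. The Schmid arrays read 13.53, 13.14 and 12.99, and the Schmid wildtype arrays 9.88, 10.73 and 10.47. The Cog arrays read 11.50, 11.13 and 10.05 and the Cog wildtype arrays 10.29, 9.79 and 10.20. The Schmid arrays stood above all others, while Cog replicate 3 fell within its wildtype and the other Cog arrays lay above it. The fold change in Schmid was 7.25, a difference of 2.86 ± 0.35 (SE) with an adjusted p of 0.00058. The fold change in Cog was 1.74, a difference of 0.80 ± 0.35 (SE) with an adjusted p of 0.22. The changes differed by 2.06 ± 0.50 (SE), with an adjusted p of 0.020. This probe, too, lies in rows 1 to 159 (row 120), and its difference in Schmid was 3.07 with an adjusted p of 0.00059 once the row trend was removed. The difference between the mutants was no longer called with the signals processed by the scanner software (adjusted p of 0.057 and 0.054 under their scalings) or without Schmid replicate 1 (0.051).

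Igfbp4, cut by the protease Pappa to release its ligand, rose in Cog at A_52_P257502. The Cog arrays read 11.53, 10.96 and 10.55, and the Cog wildtype arrays 9.90, 9.25 and 9.56, of which 1 was well above background. The Schmid arrays read 9.99, 10.20 and 9.82 and their wildtype arrays 9.75, 9.96 and 10.54. All 3 Cog arrays lay above the other 9, and the lowest of them was level with Schmid wildtype replicate 3. The fold change in Cog was 2.72, a difference of 1.44 ± 0.28 (SE) with an adjusted p of 0.021, and in Schmid the difference was -0.08 with an adjusted p of 0.85. The changes differed by -1.53 ± 0.39 (SE), with an adjusted p of 0.027, a call that was lost under 10 of 23 alternatives. The call in Cog was lost when the fit held only the 2 groups compared (adjusted p of 0.075), with the processed signals set to a common 75th percentile (0.064), and without Cog replicate 2 (0.050, just over the limit before rounding) or Cog wildtype replicate 2 (0.089) or 3 (0.065). The second Igfbp4 probe, A_51_P398971, was not well above background on any of the 12 arrays.

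Igfbp3, the main carrier of IGF in blood, was measured at 2 probes that differ in error. A_51_P228472 read 9.43, 9.41 and 9.51 on the Schmid arrays and 9.88, 10.29 and 10.27 on their wildtype arrays, with no overlap, and was well above background on 2 of the 3 Schmid arrays. The fold change was -1.62 with an adjusted p of 0.0038, under the fold limit. The difference in Cog was 0.22 with an adjusted p of 0.34, and the changes differed by -0.92 ± 0.18 (SE), with an adjusted p of 0.0077. This probe lies in row 125, and with row and GC trends removed these values were -0.30 in Schmid and -0.36 for the difference of the changes, with adjusted p of 0.043 and 0.094. With the processed signals and with normexp values at a common 75th percentile it was called lower in Schmid, at -1.78, -1.74 and -1.12. The brighter probe, A_52_P253179, was well above background on 1 of the 3 Schmid arrays and on 2 of the 3 Schmid wildtype arrays. It spread from 9.36 to 11.59 within the Schmid wildtype alone, and its larger difference of -1.26 in Schmid had an adjusted p of 0.11. Without Schmid wildtype replicate 2 that difference was -1.82 with an adjusted p of 0.037. With normexp values at a common 75th percentile it was -1.64 with an adjusted p of 0.01, and the probe was called in both cases.

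Igfbp2, a binding protein with a preference for Igf2, had a lower mean in each mutant than in its wildtype. The Schmid arrays read 9.73, 9.92 and 9.89 and their wildtype arrays 10.79, 10.45 and 10.13, while the Cog arrays read 10.75, 10.53 and 10.36 and their wildtype arrays 11.32, 10.84 and 11.26. In neither pair did the arrays overlap. The differences were -0.61 with an adjusted p of 0.041 in Schmid and -0.59 with an adjusted p of 0.11 in Cog, both under the fold limit, and the changes differed by -0.02 with an interval of -0.61 to 0.57. With row and GC trends removed the difference in Schmid was -0.34, with an adjusted p of 0.29, and with the processed signals it was called, at -1.47 and -1.30 with adjusted p of 0.020 and 0.016. Igfbp5, the binding protein most tied to bone matrix, lay between 11.11 and 12.42 on the Schmid arrays and between 12.09 and 12.94 on their wildtype arrays, a difference of -0.88 with an adjusted p of 0.23. In Cog it differed by -0.07, with an interval of -1.22 to 1.07, and its second probe was not called in either mutant.

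**Figure D3:**
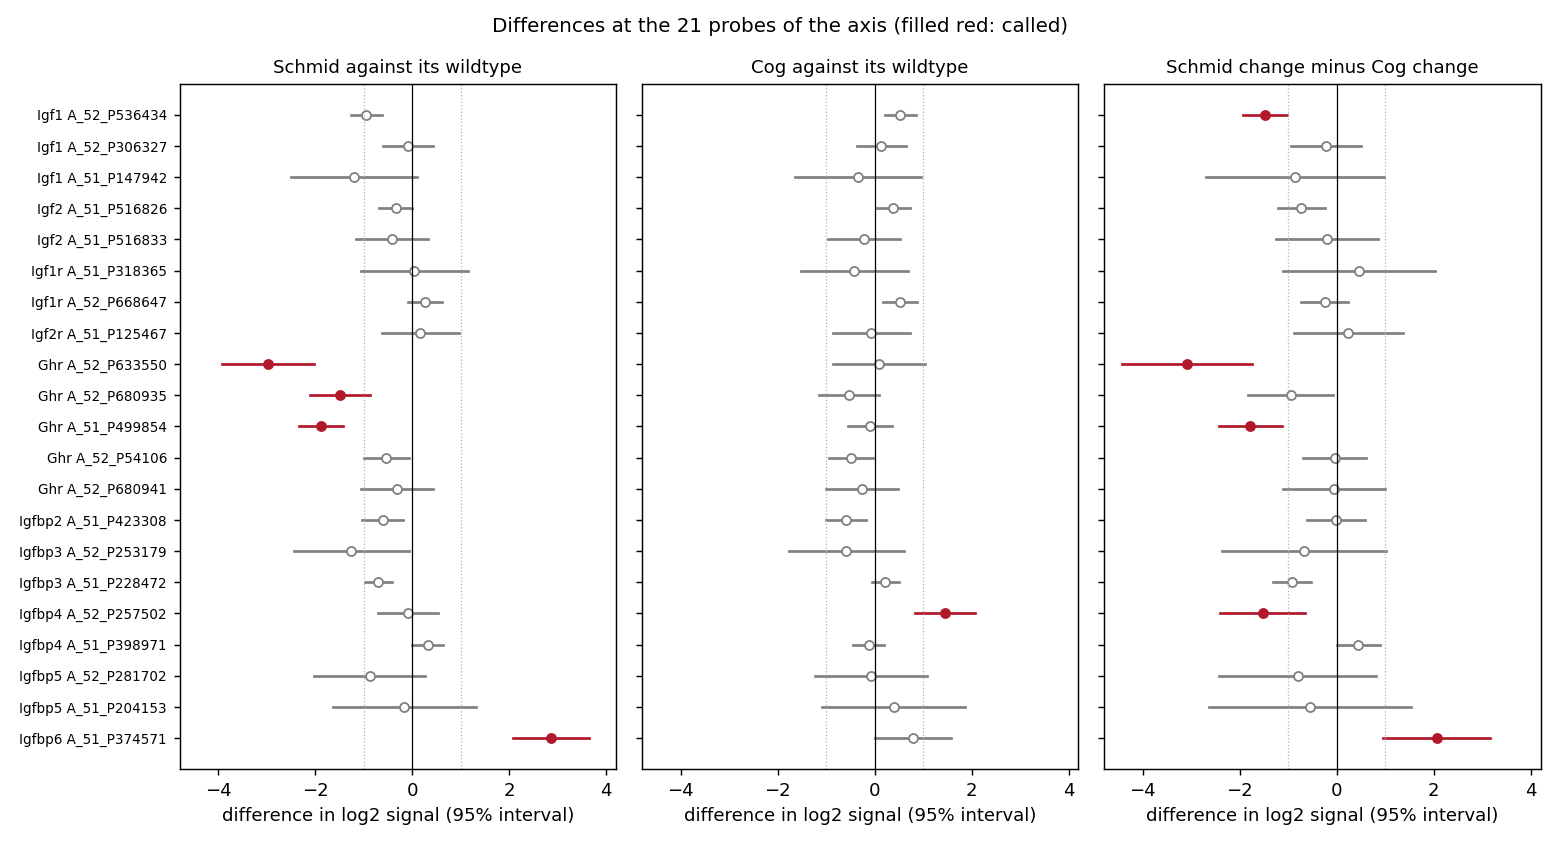
Differences in log2 signal at the 21 probes for Schmid against its wildtype, Cog against its wildtype, and the first difference minus the second. Bars are 95% intervals, filled red points are called, and dotted lines mark a 2-fold difference. The called probes number 4, 1 and 5.

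The change in Schmid and the change in Cog were set against each other at every probe. Their difference was called at 5 of the 21 probes (23.8%), against 10.3% of all probes. It was lower in Schmid for Igf1, Igfbp4 and a pair of Ghr probes, while 5.88% of all probes were called in that direction. It was higher in Schmid for Igfbp6, while 4.38% of all probes were. All 5 probes lie in rows 1 to 159, where calls of lower signal in Schmid were common. Igf1 lies in row 97, Igfbp4 in row 70, the Ghr probes in rows 35 and 53, and Igfbp6 in row 120. With the row trend removed the difference was -1.08 for Igf1 (adjusted p of 0.011). For Igfbp4 it was -1.12 (adjusted p of 0.09) and no longer called. On the adjusted p alone 7 of the 21 passed, against 16.6% of all probes. The wildtype groups compared with each other gave no called probe among the 21, against 0.469% of all probes (0.233% higher and 0.236% lower in the Schmid wildtype). On the adjusted p alone 1 of the 21 passed, the bright Igf2 probe, against 0.872% of all probes. Before adjustment, limma's p was 0.05 or less at 8 of the 21 and at 14.1% of all probes, and levels did not overlap at 6, against 18.2% of all probes.

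The wider pathway was followed in 36 of 37 listed genes, each at its brightest probe, of which 2 were not well above background on any array. In Schmid 1 of the 36 was called higher and 3 lower, against 5.78% and 4.69% of all probes (10.5% either way). Among the 36, 12 had a p of 0.05 or less before adjustment (39.3% of all probes did), and the median difference was -0.30. The number that fell was 5 when arrays were set to a common 75th percentile. Pik3r1, the regulatory subunit of the PI3-kinase that IGF receptors recruit, fell from 13.13 ± 0.48 to 10.59 ± 0.45 (SD, n = 3), a fold change of -5.80 with an adjusted p of 0.00075. H19, the imprinted non-coding RNA next to Igf2, fell from 15.06 ± 0.46 to 13.07 ± 0.10 (SD, n = 3), with an adjusted p of 0.012. Insrr, an orphan relative of the insulin receptor, fell from 10.57 to 9.47 with an adjusted p of 0.00047, with 2 of the 3 Schmid arrays well above background, but lost the call once the row trend was removed, at -0.78. Htra1, a secreted protease that cuts IGF binding proteins, rose from 15.26 ± 0.65 to 16.69 ± 0.20 (SD, n = 3), a fold change of 2.70 with an adjusted p of 0.018. Its call was lost without Schmid replicate 1 or 2 or Schmid wildtype replicate 2 or 3, at adjusted p of 0.060, 0.058, 0.070 and 0.066.

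In Cog, none of the 36 pathway genes was called by limma, against 2.31% of all probes. Of the 36, 4 had a p of 0.05 or less before adjustment (21.3% of all probes did), and the median difference was -0.07. Irs4, an adaptor of the receptors, passed on the adjusted p (0.015) but not on the fold, at a difference of 0.92. The count in Cog was 2 with array weights, with slide as a random block, with dim probes left out and without Cog wildtype replicate 1. The change in Schmid was called lower than that in Cog for 5 of the 36 pathway genes, against 5.88% of all probes. It was called higher for none, against 4.38% of all probes. The 5 genes were Pik3r1 (-2.44, adjusted p of 0.0073), Irs4 (-1.72, adjusted p of 0.0014), Insrr (-1.17, adjusted p of 0.0029), the kinase Pdpk1 (-2.64, adjusted p of 0.026) and the IGF binding protein relative Igfbpl1 (-2.82, adjusted p of 0.028).

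For some cell types that border the hypertrophic zone the summed marker signals of Schmid and its wildtype were apart, and for others they overlapped. Of all probes, 4.69% were called lower in Schmid, 39.3% had a limma p of 0.05 or less before adjustment, and 45.3% did not overlap. Of the endothelial markers, 3 of 6 were called lower. The log2 of their summed signal was 12.49 to 13.01 on the Schmid arrays and 14.22 to 14.97 on the wildtype arrays. Of the red cell markers, 3 of 5 fell, and their sum was 14.59 to 16.05 on the Schmid arrays and 17.94 to 19.91 on the wildtype arrays. The osteoclast sum was also apart, at 13.61 to 14.14 against 15.20 to 16.49, with 1 of 5 markers called lower, and the adipocyte sum was 11.37 to 12.70 against 13.23 to 13.62, with none of 4 called and 2 below a p of 0.05 before adjustment. The osteoblast sum overlapped, at 19.02 to 19.50 on the Schmid arrays against 19.46 to 20.33 on the wildtype arrays. Of its 6 markers 1 was called lower, and 4 had a limma p of 0.05 or less before adjustment. The fibroblast, marrow myeloid and skeletal muscle sums overlapped as well, with no marker called. Overlap of the sums does not show that these markers stayed level. The median marker difference in Schmid was -1.18 for osteoblast, -0.34 for fibroblast, -2.01 for marrow myeloid and -1.59 for skeletal muscle markers. For the lists with sums apart it was -0.96 (endothelial), -3.45 (red cell), -0.64 (osteoclast) and -0.57 (adipocyte). No marker of the 10 lists was called higher in Schmid, against 5.78% of all probes. In Cog, the summed marrow myeloid markers were 14.49 to 16.92 against 13.47 to 13.98 in the wildtype, with none of 7 called and 0 below a p of 0.05 before adjustment. The Cog endothelial sum was 13.51 to 14.31 against 14.56 to 14.90, with none of 6 called and 4 below that p. Of all probes, 21.3% had such a p in Cog, and 29.4% did not overlap. Of the 6 osteoblast markers 1 was called lower in Cog, and no other marker of the bordering cell types was called there. The part of these cells in the values of Ghr, Igf1, Igfbp6 and Igfbp4 was not tested. In bulk tissue, fewer cells of a type and less RNA per cell cannot be told apart.

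The summed chondrocyte markers read lower in Schmid as well and did not overlap with those of its wildtype. They were at 18.64 to 19.15 against 19.18 to 20.05 for the hypertrophic markers and 20.33 to 20.45 against 20.66 to 21.06 for the proliferative and resting markers. The hypertrophic sum was lower and apart in Cog too, at 19.17 to 19.65 against 19.74 to 20.00 in its wildtype. The proliferative and resting sum overlapped in Cog, at 20.69 to 20.88 against 20.58 to 20.92. Of 7 hypertrophic markers, Ihh (-3.55, adjusted p of 0.00014) and the parathyroid hormone receptor Pthr1 (-1.20, adjusted p of 0.0016) fell in Schmid. In Cog, Ihh fell (-1.37, adjusted p of 0.036). The rest of this list, Col10a1, Mmp13 and Spp1 among them, was not called in either mutant. Of 9 proliferative and resting markers, 2 fell in Schmid and none was called in Cog. Of all probes, 4.69% were called lower in Schmid and 0.748% in Cog.

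For the 3 genes called at their brightest probe, the genes with the most similar pattern over the 12 arrays were sought among 10416 genes well above background on every array. These correlations are descriptions, since the arrays share 4 group means and 4 slides. Ghr was followed most closely by the RIKEN transcript 9430020K01Rik, with a Pearson r of 0.985. Igfbp6 was followed by Pck2, a mitochondrial enzyme of the gluconeogenic route (r of 0.979), and by Gulo, an enzyme of vitamin C synthesis (r of 0.972). Igfbp4 was followed by Cd5l, a protein secreted by macrophages (r of 0.966).

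**Figure D4:**
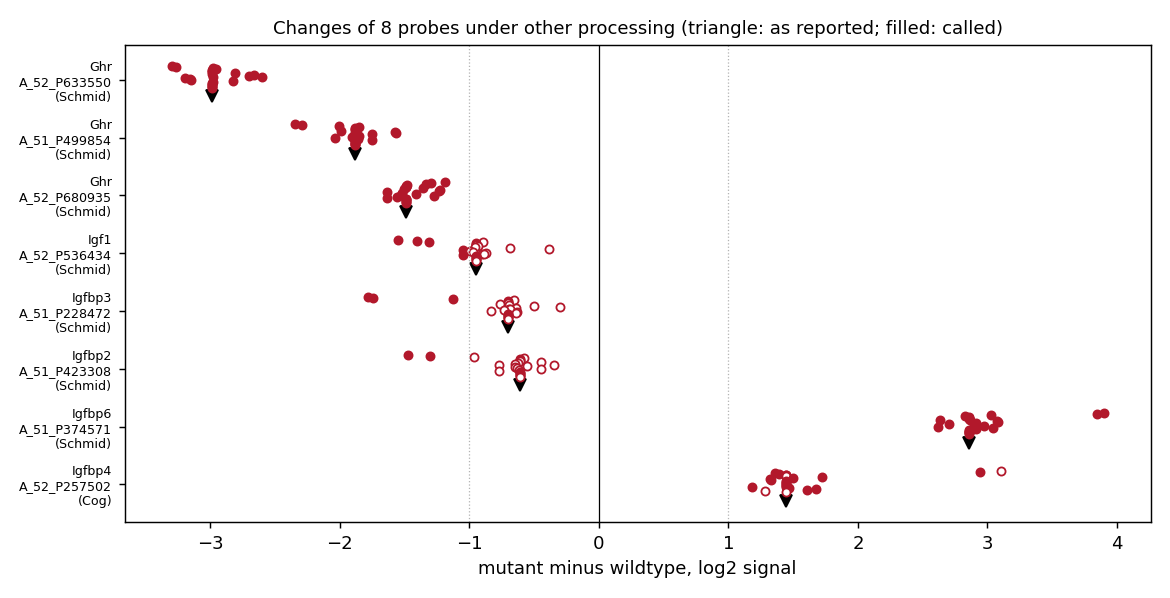
Mutant minus wildtype difference in log2 signal of 8 probes under the 24 other ways of processing or leaving out an array (circles, filled where called) and as given in the text (triangles). Dotted lines mark a 2-fold difference. The 3 Ghr probes and Igfbp6 were called throughout in Schmid, from -3.30 to -2.60 for A_52_P633550 and from 2.62 to 3.90 for Igfbp6, while Igf1, Igfbp3 and Igfbp2 crossed the fold limit under some of them.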

How the data were processed

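RNA of 12 hypertrophic zones, after 2 rounds of amplification by the study, was measured on 12 single-colour arrays. The authors deposited the scanner output, made with Agilent Feature Extraction 9.5.3, with the intensity of every spot and of its local background, not normalized between arrays. They also deposited a series matrix of log2 values after normexp correction and quantile normalization, which correlated with the values made here by at least 0.99987 on each array and served as an alternative.

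Intensities were corrected with normexp (offset 50), spots flagged as non-uniform or outliers were left out, and log2 values were quantile normalized and averaged per probe. Group means were fitted over all 12 arrays with limma 3.58.1 in R 4.3.3, with Benjamini-Hochberg adjustment of the p-values across 41174 probes. The limma step alone was run on simulated normalized values. That run does not test the background correction, the normalization, the row trends or the sharing of slides. All members were named, at every probe, with pathway genes named where called at their brightest probe. The members, lists and tests were chosen with earlier results of these data known. Probe positions come from the array annotation (mm7) and were not aligned again. Alternatives were other signals and scalings, a filter on dim probes, array weights, blocks, row and GC trends, and leaving out each array. The number of arrays limits the precision.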

Additional observations from a re-analysis of the deposited data

Results flagged for a closer look

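The tests of the change in Schmid minus the change in Cog passed an adjusted p of 0.05 at 7 probes. The differences were -1.48 for Igf1 A_52_P536434, -0.73 for Igf2 A_51_P516826, -3.08 for Ghr A_52_P633550, -1.78 for Ghr A_51_P499854, -0.92 for Igfbp3 A_51_P228472, -1.53 for Igfbp4 A_52_P257502 and 2.06 for Igfbp6 A_51_P374571. At these single probes of Igf1 and Igf2 both mutants lay clear of their own wildtype and on opposite sides of it. The wildtype groups themselves differed there by 0.55 and 0.81. The second Igf2 probe had lower means in both mutants, at -0.42 in Schmid and -0.21 in Cog, and overlapped with the wildtype in each. For Igfbp4 the difference rests on Cog, and for Ghr and Igfbp6 it rests on Schmid. The values of Igf2 and Igfbp3 were under the 2-fold limit, and that of Igfbp3 no longer passed with row and GC trends removed (adjusted p of 0.094) and that of Igf2 with scan day as a block (0.092).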

How the results depend on the processing

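The 4 probes called in Schmid (Ghr A_52_P633550, A_51_P499854 and A_52_P680935, and Igfbp6) were called under all 24 alternatives. The count in Schmid was 8 with processed signals at a common 75th percentile, with processed signals quantile normalized and with normexp values at a common 75th percentile. The scalings to a 75th percentile moved the median of all probes in Schmid to -0.40 (processed) and -0.35 (normexp), and that in Cog with processed signals to 0.43. The count in Cog was 0 with processed signals at a common 75th percentile and with only the compared groups in the fit, and 2 with array weights, where Igfbp6 was called at 1.13. The count for the difference of changes was 3 with row and GC trends removed, where Igf1 was -0.80 and Igfbp4 was -1.12. Leaving out each array in turn gave 4 to 5 called probes in Schmid, 0 to 2 in Cog, 3 to 6 for the difference and 0 to 0 between the wildtype groups. The labels do not say whether replicate numbers pair the arrays. Between arrays of the same number, deviations from the group means had correlations of 0.19, 0.17 and 0.07 for Schmid with its wildtype. They were -0.12, 0.07 and -0.11 for Cog with its wildtype, and 0.41, 0.05 and 0.19 between the wildtype groups. Arrays of unlike number were not compared, so these values cannot decide on pairing. With the replicate number as a block the counts were 4, 1, 5 and 0. Scan day as a block, chosen after seeing the data, gave counts of 5, 1, 4 and 0, where Igf1 was called in Schmid at -1.04; for Schmid this is the same as leaving out Schmid wildtype replicate 3. Of all the values computed for single probes, 22 of 500 in Schmid, 25 of 500 in Cog, 37 of 479 for the difference and 20 of 500 between the wildtypes changed sign without a call in either setting. The cause of these shifts was not tested. Signal over background limits the Igf1 and Igfbp4 probes that were dim on most arrays.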
